A study of Mus musculus with 72 samples.

Results

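The glucocorticoid response of endotoxin-stimulated macrophages was examined in 6 messenger RNA libraries of mouse bone marrow-derived macrophages, 3 from cells given dexamethasone and lipopolysaccharide (Dex plus LPS) and 3 from cells given lipopolysaccharide and the ethanol vehicle (LPS). They were chosen by their labels alone, as the control cells of a series of 72 libraries in 24 groups of 3 that compares macrophages with and without intact Setd1a or Setd1b, which are histone methyltransferases of the COMPASS family. The Dex plus LPS cells had 1 uM Dex for 16 h and 100 ng/ml LPS for 6 h, and the LPS cells had 0.1% ethanol for 16 h and the same LPS. A baseline of 3 vehicle libraries had 0.1% ethanol and 0.1% D-PBS. All came from C57BL/6J mice. The titles say wt whereas the genotype is labelled Setd1bHet, and the name control is used for these cells. The 3 groups thus share a label of heterozygous Setd1b, and no unaltered wild-type group of marrow cells was used. The sex label is female, whereas the growth text speaks of male mice. The sample labels give LPS in ng/ml, whereas the treatment text gives the same figure per microlitre. Marrow cells were differentiated for 7 days in medium with 30% supernatant of L929 cells, a source of the growth factors M-CSF and GM-CSF, and were treated in serum-free medium. Replicates are labelled biological, with no word on separate animals or cultures. The p-values therefore reflect only the spread between libraries, which may be technical. That spread was estimated over 18 marrow-derived libraries, which include cells labelled Setd1bKO that had the same treatments. The response is also set beside that of the Setd1bKO-labelled cells. Some gene sets come from wild-type RAW264.7 cells given vehicle, 100 ng/ml LPS or 1 uM Dex for 6 h.

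Dexamethasone is a synthetic glucocorticoid. It binds the glucocorticoid receptor, the product of Nr3c1, which then enters the nucleus and acts on transcription, either through glucocorticoid response elements in the DNA or through other factors such as NF-kB and AP-1. LPS, a component of the outer membrane of Gram-negative bacteria, is sensed by Tlr4 with Ly96 and Cd14. It starts an NF-kB and MAPK programme through Myd88, and an interferon programme through Ticam1, Irf3 and secreted interferon beta that reaches its target genes through Stat2 and Irf9. Glucocorticoids are known in macrophages for damping inflammatory cytokines and for raising a small group of receptor targets.

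The promoters of 6 genes that the results turn on are shown first, as sense strand sequence from 250 bases before to 50 bases after the RefSeq start on GRCm38.p6. Ifit1, Rsad2 and Cxcl10 are interferon-stimulated genes that were lower with Dex, and Mt2, Mt1 and Lcn2 were among the genes most raised. Capitals mark matches on either strand to 4 motifs. They are GAAANNGAA (interferon-stimulated response element), GGNNTTTCC (NF-kB), ACANNNTGT (core of the glucocorticoid response element) and TGCNCNC (a loose form of the metal response core). Matches may overlap. Ifit1 lies at chr19:34640639-34640938 (plus strand), Rsad2 at chr12:26456403-26456702 (minus), Cxcl10 at chr5:92348840-92349139 (minus), Mt2 at chr8:94172368-94172667 (plus), Mt1 at chr8:94178839-94179138 (plus) and Lcn2 at chr2:32387690-32387989 (minus).
Ifit1: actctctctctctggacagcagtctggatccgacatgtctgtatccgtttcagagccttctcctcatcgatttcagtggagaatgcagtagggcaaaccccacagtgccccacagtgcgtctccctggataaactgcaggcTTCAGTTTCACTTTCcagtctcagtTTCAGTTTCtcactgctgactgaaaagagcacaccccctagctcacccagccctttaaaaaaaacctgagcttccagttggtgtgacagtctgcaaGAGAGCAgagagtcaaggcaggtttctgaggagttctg
Rsad2: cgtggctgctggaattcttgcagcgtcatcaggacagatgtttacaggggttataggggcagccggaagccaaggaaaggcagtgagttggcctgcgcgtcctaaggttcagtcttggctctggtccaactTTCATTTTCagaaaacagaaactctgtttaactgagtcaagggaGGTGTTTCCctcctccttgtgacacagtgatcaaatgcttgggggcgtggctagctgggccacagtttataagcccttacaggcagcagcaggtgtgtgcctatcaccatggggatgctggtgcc
Cxcl10: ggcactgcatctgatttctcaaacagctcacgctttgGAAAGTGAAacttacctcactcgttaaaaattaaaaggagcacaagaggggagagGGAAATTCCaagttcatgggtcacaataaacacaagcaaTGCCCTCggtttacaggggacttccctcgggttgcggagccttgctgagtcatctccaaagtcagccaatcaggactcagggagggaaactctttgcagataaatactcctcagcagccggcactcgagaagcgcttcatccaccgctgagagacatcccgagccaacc
Mt2: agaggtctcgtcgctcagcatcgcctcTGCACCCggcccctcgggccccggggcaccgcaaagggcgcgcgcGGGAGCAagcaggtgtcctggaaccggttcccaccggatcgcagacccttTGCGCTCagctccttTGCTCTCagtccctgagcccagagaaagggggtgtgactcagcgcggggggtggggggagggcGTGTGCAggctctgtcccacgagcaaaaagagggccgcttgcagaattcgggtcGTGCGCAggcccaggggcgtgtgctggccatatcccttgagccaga
Mt1: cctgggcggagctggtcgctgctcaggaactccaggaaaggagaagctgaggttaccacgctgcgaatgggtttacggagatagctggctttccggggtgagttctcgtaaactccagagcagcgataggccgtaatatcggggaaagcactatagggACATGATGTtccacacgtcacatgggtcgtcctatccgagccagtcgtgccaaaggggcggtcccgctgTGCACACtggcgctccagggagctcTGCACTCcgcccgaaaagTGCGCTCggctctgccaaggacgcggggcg
Lcn2: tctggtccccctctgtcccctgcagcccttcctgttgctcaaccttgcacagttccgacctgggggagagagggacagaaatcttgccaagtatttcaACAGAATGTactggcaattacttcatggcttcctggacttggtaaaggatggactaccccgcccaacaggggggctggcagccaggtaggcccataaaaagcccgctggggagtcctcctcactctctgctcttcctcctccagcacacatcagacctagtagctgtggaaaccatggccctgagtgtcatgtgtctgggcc
The Ifit1 window held 3 matches to the interferon-stimulated response element and 1 to TGCNCNC. Rsad2 and Cxcl10 each held 1 interferon-stimulated element and 1 NF-kB match, and Cxcl10 also held 1 match to TGCNCNC. Mt2 held 6 matches to TGCNCNC. Mt1 held 3 of these and 1 to the glucocorticoid core, and Lcn2 held 1 match to the glucocorticoid core. A match is a stretch of letters and not a shown binding site, and TGCNCNC, which leaves its 4th base open, matched 53.6% of all promoters.

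TPM values, which express each transcript as a share of all transcripts, were compared on the scale log2(TPM + 1) with limma. Of 9179 listed genes, 9159 had at least 1 TPM in at least 3 of the 18 marrow-derived libraries and were tested. Changes are log2 differences of Dex plus LPS minus LPS with their standard error, so a positive value means higher with Dex, and they understate the change of genes near 0 TPM. Values given with ± and TPM are means ± SD with n = 3. Calls were made at an adjusted p (Benjamini-Hochberg) under 0.05. The listed genes summed to 904986 to 909761 TPM in the Dex plus LPS libraries and 906612 to 907911 TPM in the LPS libraries, the number of reads is unknown, and replicates of the same control group had Pearson correlations of 0.9938 to 0.9957. Of the tested genes, 4100 (44.8%) were called higher with Dex and 1389 (15.2%) lower, 5489 (59.9%) in all. The median change was 0.18. Median-of-ratios scaling, which sets the typical gene to no difference, moved all changes by about -0.20 (median -0.01 after it). Of the 9151 genes then tested it left 1883 (20.6%) higher and 2455 (26.8%) lower, so that 74.7% of the calls were higher before scaling and 43.4% after. At least 2-fold in size were 166 (1.81%) calls higher and 229 (2.5%) lower as deposited, and 98 and 346 after scaling. In the text, rose and fell are written of genes called in the same direction under both settings, and any gene for which they differed is named as such. In the first 2 principal components of the 9 control libraries, which held 87.3% and 9.1% of the variance, the first set LPS-treated cells apart from vehicle and the second set Dex plus LPS apart from LPS.

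The marker genes of macrophages were present in every library. All 12 macrophage markers were listed and summed to 30321 to 31856 TPM with Dex plus LPS, 26096 to 27930 TPM with LPS and 39086 to 40032 TPM with vehicle. Of these, 7 were called higher with Dex and 4 lower (6 and 5 after scaling). None of 12 T and NK cell, 8 dendritic cell and 8 erythroid markers was among the listed genes. Of 12 neutrophil markers only S100a8 and Mmp8 were listed, with a sum of 302.3 to 336 TPM with Dex plus LPS, 170.4 to 179 TPM with LPS and 86.2 to 89.7 TPM with vehicle. Both were called higher with Dex, and the defining genes Ly6g, Mpo and Elane were not listed. The share of calls over all tested genes was 44.8% higher and 15.2% lower (20.6% and 26.8% after scaling). Of the B cell markers Cd22 and Ighm, of mast cell and basophil markers Hdc, and of fibroblast and endothelial markers Kdr and Vwf were listed. The sums of these 3 lists were at most 7.21 TPM with Dex plus LPS and at most 21.8 TPM with LPS. As deposited Ighm, Hdc, Kdr and Vwf were called lower with Dex, and Cd22 was not called. In bulk RNA fewer cells of a type and less RNA per cell cannot be told apart. The part of other cell types in the results was not tested.

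Known targets of the receptor were among the genes that rose most. Tsc22d3 (ENSMUSG00000031431, chromosome X, 140539528 to 140600659, minus strand on GRCm38), which encodes the leucine zipper protein GILZ, had 103, 90.8 and 78.6 TPM in the Dex plus LPS libraries, against 1.96, 1.35 and 2.74 TPM in the LPS libraries. It was far higher in every Dex plus LPS library (4.95 ± 0.15, adjusted p = 9.57e-13), and the LPS libraries lay far under the vehicle libraries, which had 95.5, 95.5 and 97.4 TPM. Per1, a clock repressor, had 24.9, 20.3 and 20.3 TPM in the Dex plus LPS libraries, against 0.820, 1.06 and 1.48 TPM in the LPS libraries (3.44 ± 0.19), again with a wide gap. Fkbp5, a cochaperone that lowers the receptor's affinity for hormone, had 47.5, 43.9 and 46.2 TPM in the Dex plus LPS libraries, against 4.13, 4.36 and 3.70 TPM in the LPS libraries (3.21 ± 0.086). Vehicle cells had 3.92, 4.61 and 5.02 TPM, in the range of the LPS libraries and above it. The dual-specificity phosphatase Dusp1, which inactivates p38 and JNK, had 300.3, 288 and 286 TPM in the Dex plus LPS libraries, against 39.8, 39.5 and 39.9 TPM in the LPS libraries (2.84 ± 0.055). Here LPS cells were already above the 14.2, 14.0 and 15.1 TPM of vehicle cells, and Dex plus LPS cells were higher still. Klf9 (2.38 ± 0.13) and the tensin Tns1 (4.44 ± 0.13) also rose, Tns1 to 36.3, 42.6 and 37.0 TPM with Dex plus LPS, against 1.15, 0.622 and 0.743 TPM with LPS. The sulfotransferase Sult1a1 (2.56 ± 0.11) also rose at least 2-fold.

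The list of 38 glucocorticoid-induced genes had 31 tested members. Of these 18 were called higher and 4 lower (18 and 7 after scaling). All tested genes had 44.8% called higher and 15.2% lower (20.6% and 26.8% after scaling). Of the members 13 were called higher by at least 2-fold, beside 1.81% of all tested genes, and the list had a median of 0.49 (0.34 after scaling) beside 0.18 (-0.01) for all tested genes. Some members fell. Anxa1, an anti-inflammatory phospholipase inhibitor, fell to 966, 967 and 968 TPM, against 1496, 1484 and 1432 TPM (-0.60 ± 0.039). The kinase Sgk1 fell to 309.7, 257 and 257 TPM, against 348, 356 and 312 TPM (-0.30 ± 0.093). In both the 3 and 3 libraries did not overlap, as in 67.2% of all tested genes. Nfkbia, which encodes the NF-kB inhibitor IkBa, had 709.7, 722 and 698 TPM in the Dex plus LPS libraries, against 703, 657 and 696 TPM in the LPS libraries (0.05 ± 0.052, adjusted p = 0.403). It was not called as deposited, the groups overlapped, and after scaling it was called lower at -0.17. Tnfaip3, the A20 ubiquitin-editing enzyme, had a change of 0.20 ± 0.14 and was called under neither setting, though it was called higher with the 6 compared libraries fitted alone (adjusted p = 0.0026). The receptor gene itself, Nr3c1, had 73.6, 65.8 and 93.5 TPM in the Dex plus LPS libraries, against 51.1, 64.6 and 70.3 TPM in the LPS libraries (0.32 ± 0.24, adjusted p = 0.276, and 0.10 after scaling), which did not pass the test. Of 22 tested genes for the receptor, its chaperones and coregulators, 7 were called higher and 3 lower (2 and 9 after scaling, median 0.10 and -0.12), and Fkbp5 was the member with the largest change. The coactivator Ncoa1 had only 0.0823, 0.0446 and 0.354 TPM in the Dex plus LPS libraries, against 1.02, 0.414 and 1.12 TPM in the LPS libraries (-0.66 ± 0.22, adjusted p = 0.016), and the call was lost without replicate 2 of Dex plus LPS, replicate 1 of LPS or replicate 3 of LPS, at adjusted p = 0.0560, 0.0572 and 0.0672. In the authors' deposited table it was not called either, at -2.62 with an adjusted p of 0.115. Zbtb16, Il10, Cd163 and Arg1, which are often measured in this setting, were not analysed here.

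**Figure D1:**
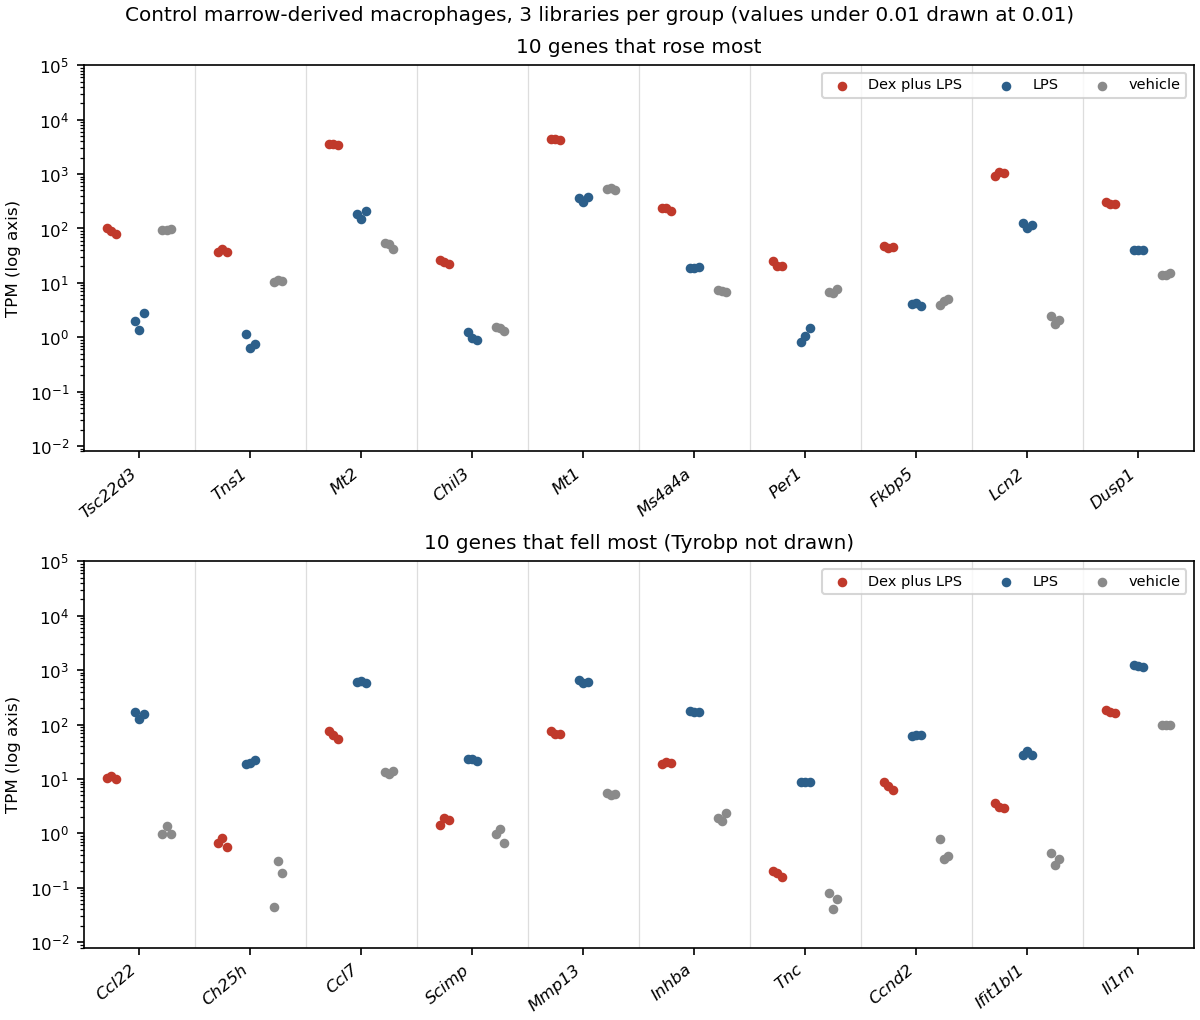
TPM of 10 genes that rose and 10 that fell, on a log axis, for each of the 3 Dex plus LPS, 3 LPS and 3 vehicle libraries of control cells. Each point is 1 library. Tsc22d3 lies at 78.6 to 103.3 TPM with Dex plus LPS and at 1.35 to 2.74 TPM with LPS. The genes drawn were chosen among those whose Dex plus LPS and LPS libraries did not overlap, which held for 67.2% of all tested genes.

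Mt1, Mt2 and 5 of 13 acute-phase genes were called higher under both settings, beside 20.6% of all tested genes called higher after scaling. The metallothioneins Mt2 and Mt1, small cysteine-rich proteins that bind zinc and copper, are neighbours on chromosome 8, and their promoters are printed above. Mt2 had 3597, 3501 and 3363 TPM in the Dex plus LPS libraries, against 187, 148 and 205 TPM in the LPS libraries (4.28 ± 0.11, adjusted p = 9.33e-14). Mt1 had 4437, 4318 and 4256 TPM in the Dex plus LPS libraries, against 357, 304 and 381 TPM in the LPS libraries (3.65 ± 0.066). For both genes the lowest Dex plus LPS library was far above the highest LPS library. Lcn2, the siderophore-binding lipocalin 2, had 924, 1111 and 1032 TPM in the Dex plus LPS libraries, against 125, 104 and 114 TPM in the LPS libraries (3.15 ± 0.10), and vehicle cells had 2.49, 1.76 and 2.11 TPM. Serum amyloid Saa3 had 36473, 35300.0 and 34043 TPM in the Dex plus LPS libraries, against 11173, 10877 and 11357 TPM in the LPS libraries (1.66 ± 0.082) and was the most abundant listed mRNA with Dex plus LPS. Haptoglobin, Hp, rose to 50.5, 43.8 and 44.1 TPM, against 6.73, 7.97 and 9.18 TPM (2.40 ± 0.15), and orosomucoid Orm1 (1.39 ± 0.14) rose too. Of 13 acute-phase and antimicrobial genes 8 were called higher and 4 lower (5 and 4 after scaling, median 0.38 and 0.17). Over all tested genes 44.8% were called higher and 15.2% lower (20.6% and 26.8% after scaling). The serine protease inhibitors Serpina3f (-1.55 ± 0.086) and Serpina3g (-1.51 ± 0.12) fell.

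Most targets of the oxidative stress factor NRF2 were called higher, 15 of 19 as deposited and 10 of 19 after scaling, beside 44.8% and 20.6% of all tested genes. Of 20 metallothionein, zinc and iron genes 12 were called higher and 3 lower (7 and 5 after scaling, median 0.26 and 0.07). Without replicate 2 or 3 of Dex plus LPS, or replicate 2 of LPS, 1 was called lower. Haem oxygenase, Hmox1, had 1324, 1224 and 1259 TPM in the Dex plus LPS libraries, against 498, 426 and 486 TPM in the LPS libraries (1.43 ± 0.064). The NRF2 list had 2 genes called lower (3 after scaling) and a median of 0.54 (0.32). Gclc, the catalytic subunit of glutathione synthesis, rose to 30.3, 28.6 and 31.0 TPM, against 11.1, 10.3 and 10.7 TPM (1.40 ± 0.067). Catalase, Cat (1.10 ± 0.046), glutathione reductase, Gsr (1.09 ± 0.045), and the cystine transporter Slc7a11 (1.02 ± 0.14) rose too. Nqo1, a classical NRF2 target, had a change of -0.01 ± 0.088 and was not called. Of 20 genes of the unfolded protein and integrated stress response 13 were called higher and 1 lower (6 and 4 after scaling, median 0.25 and 0.07), beside 44.8% and 15.2% of all tested genes (20.6% and 26.8% after scaling), led by Herpud1 (1.35 ± 0.080) and the co-chaperone Dnajb9 (1.08 ± 0.086). Without replicate 1 of Dex plus LPS or replicate 3 of LPS 2 were called lower.

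Surface receptors and secreted proteins were among the other genes that rose. The chitinase-like protein Chil3, a marker of alternative activation in mice, had 22.6 to 26.6 TPM in the Dex plus LPS libraries, against 1.23, 0.957 and 0.874 TPM in the LPS libraries (3.65 ± 0.092). The tetraspan protein Ms4a4a had 241, 239.6 and 208 TPM in the Dex plus LPS libraries, against 18.7, 18.5 and 19.9 TPM in the LPS libraries (3.52 ± 0.11). The scavenger receptor Marco had 545, 596 and 559.9 TPM in the Dex plus LPS libraries, against 138, 126 and 139 TPM in the LPS libraries (2.07 ± 0.071), and vehicle cells had 2.69, 2.75 and 2.92 TPM. The complement C5a receptor C5ar1 (1.47 ± 0.087) rose by more than 2-fold, and the formyl peptide receptor Fpr1 by less (0.46 ± 0.090). The E3 ligase Rnf103 (2.53 ± 0.069), the adaptor Klhl6 (2.41 ± 0.16) and the amino acid transporter Slc43a2 (2.39 ± 0.095) complete the 15 genes that rose most.

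Most genes of the interleukin 1 list were called lower, 8 of 13, beside 15.2% of all tested genes (26.8% after scaling). Il1b (minus strand of chromosome 2, 129364570 to 129371139), the gene of interleukin 1 beta, had 4547, 4296 and 4012 TPM in the Dex plus LPS libraries, against 12286, 12096 and 12220.0 TPM in the LPS libraries. All Dex plus LPS libraries were lower (-1.51 ± 0.065, adjusted p = 4.17e-11) and far above the 15.9, 16.4 and 14.3 TPM of vehicle cells. Il1a fell by a like amount (-1.44 ± 0.085). The antagonist Il1rn, which blocks the receptor of both, fell further, to 189, 168 and 165 TPM, against 1239, 1182 and 1168 TPM (-2.78 ± 0.078). In the same list the inflammasome sensor Nlrp3 rose, to 244, 269.6 and 261 TPM, against 198, 175 and 186 TPM (0.47 ± 0.060). After scaling 10 of the 13 were called lower, and 2 were called higher under both settings (median -0.35 and -0.55).

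Il6 fell to 1509, 1444 and 1332 TPM, against 3193, 3362 and 3139 TPM (-1.18 ± 0.079). The subunits of interleukin 12, Il12b (-1.68 ± 0.095) and Il12a (-1.72 ± 0.10), fell by more, and so did activin A, encoded by Inhba, with 18.6, 20.8 and 19.8 TPM in the Dex plus LPS libraries, against 174, 171 and 172 TPM in the LPS libraries (-3.06 ± 0.17). The colony-stimulating factors split. Csf2, which encodes GM-CSF, fell to 4.56, 4.93 and 6.50 TPM, against 35.3, 27.6 and 35.1 TPM (-2.42 ± 0.12). Csf3, which encodes G-CSF, rose to 81.6, 98.5 and 96.6 TPM, against 19.9, 18.2 and 19.6 TPM (2.20 ± 0.077). Csf1, which encodes M-CSF, had a change of 0.13 ± 0.071 and was not called. Of 21 other cytokines and growth factors 13 were called lower and 3 higher (14 and 3 after scaling, median -0.70 and -0.91). Over all tested genes 15.2% were called lower and 44.8% higher (26.8% and 20.6% after scaling).

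Tnf, the cytokine most often used as a readout of LPS, had 6734, 7344 and 7918 TPM in the Dex plus LPS libraries, against 7497, 6612 and 7278 TPM in the LPS libraries. The groups overlapped, the change was 0.04 ± 0.084, adjusted p = 0.704, and it was -0.18 and not called after scaling. Of 15 genes of the TNF family, its receptors and adaptors 5 were called higher and 5 lower (3 and 5 after scaling, median 0.03 and -0.18). The share of all tested genes was 44.8% higher and 15.2% lower (20.6% and 26.8% after scaling). The death ligand Tnfsf10 (-1.53 ± 0.096) and the cytokine Tnfsf15 (-1.18 ± 0.16) fell, and the costimulatory ligand Tnfsf9 (0.73 ± 0.14) and the death receptor Fas (0.61 ± 0.12) rose.

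Of the chemokines, Ccl22, Ccl7, Ccl2 and Cxcl10 fell, and Cxcl1 rose. Ccl22, a ligand of Ccr4, had 10.6, 11.3 and 10.1 TPM in the Dex plus LPS libraries, against 169.9, 127 and 154 TPM in the LPS libraries (-3.69 ± 0.20, adjusted p = 4.74e-10). Ccl7 had 75.1, 63.8 and 53.6 TPM in the Dex plus LPS libraries, against 609, 639.9 and 577 TPM in the LPS libraries (-3.24 ± 0.13), and Ccl2, the monocyte attractant beside it on chromosome 11, had 559.6, 501 and 503 TPM in the Dex plus LPS libraries, against 1819, 1811 and 1700.3 TPM in the LPS libraries (-1.77 ± 0.075). Ccl12 (-1.91 ± 0.17) and Ccl8 (-1.17 ± 0.12) fell with them. Ccl5 was among the most abundant mRNAs and had 17250.0, 16443 and 15050.0 TPM in the Dex plus LPS libraries, against 16334, 17086 and 17553 TPM in the LPS libraries (-0.07 ± 0.097), which was called lower only after scaling (-0.28). Ccl3, at 30547, 31160.0 and 31540.0 TPM, against 36015, 33530.0 and 35571 TPM, fell by 0.17 on the log2 scale. Of 14 CC chemokines and receptors 10 were called lower and 0 higher (13 and 0 after scaling, by limma under both), with a median of -0.65 (-0.87). Over all tested genes 15.2% were called lower and 44.8% higher (26.8% and 20.6% after scaling). At an unadjusted p under 0.05 the number higher was 0 under both settings, and 0 were called higher in the authors' deposited table. Without replicate 3 of Dex plus LPS 1 was called higher.

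Of 9 CXC chemokines and receptors 6 were called lower and 3 higher (6 and 2 after scaling, median -0.66 and -0.85). The background is again 15.2% lower and 44.8% higher (26.8% and 20.6% after scaling). Cxcl10, an interferon-induced T cell attractant whose promoter is printed above, fell to 1650.5, 1441 and 1400.2 TPM, against 5482, 5571 and 5429 TPM (-1.88 ± 0.11). Cxcl16 (-0.96 ± 0.045) and Cxcl3 (-0.84 ± 0.084) fell too. Cxcl1, a neutrophil attractant, rose to 4041, 4504 and 4811 TPM, against 2335, 2182 and 2484 TPM (0.93 ± 0.14). Cxcl2, its close relative, had 19091, 21220.0 and 22394 TPM in the Dex plus LPS libraries, against 16441, 14710.0 and 16345 TPM in the LPS libraries (0.40 ± 0.12), which was called higher as deposited and not after scaling (0.18).

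**Figure D2:**
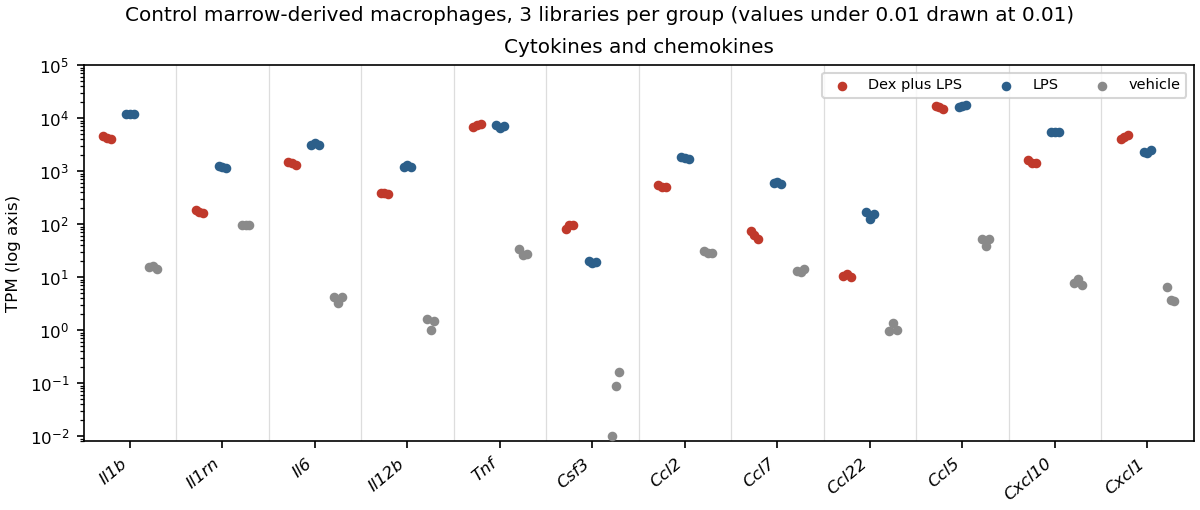
TPM on a log axis of 12 cytokine and chemokine genes in each of 3 Dex plus LPS, 3 LPS and 3 vehicle libraries. Il1b, Il6, Il12b, Ccl2, Ccl7, Ccl22 and Cxcl10 are lower with Dex plus LPS than with LPS in all 3 libraries, Cxcl1 and Csf3 are higher, and the Tnf and Ccl5 points of the groups overlap.

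Nearly all interferon-stimulated genes were called lower. Of 49 tested interferon-stimulated genes 47 were called lower, beside 15.2% of all tested genes, and 0 higher (49 and 0 after scaling, by limma under both), 16 of them by at least 2-fold, with a median of -0.74 (-0.95 after scaling) and a range of -2.86 to -0.18. At an unadjusted p under 0.05 the number higher was 0 under both settings, and 0 were called higher in the authors' deposited table. Ifit1, an RNA-binding effector, had 550.4, 492 and 496 TPM in the Dex plus LPS libraries, against 1025, 1033 and 974 TPM in the LPS libraries (-0.98 ± 0.059, adjusted p = 1.89e-09). Mx1, a dynamin-like antiviral GTPase, had 322, 229.9 and 222 TPM in the Dex plus LPS libraries, against 841, 865 and 825 TPM in the LPS libraries (-1.73 ± 0.24). Rsad2, the radical enzyme viperin, fell to 659, 574 and 583 TPM, against 2127, 2219.9 and 2033 TPM (-1.81 ± 0.074), and its neighbour Cmpk2 by -2.00 ± 0.081. Ifit1bl1 (-2.86 ± 0.088), the GTPase Iigp1 (-2.12 ± 0.099) and Slfn4 (-1.89 ± 0.17) were the other members that fell most. Ifit and Slfn genes have close relatives, between which reads may be split. In vehicle cells Mx1 had 4.72, 2.86 and 1.51 TPM and Ifit1 3.75, 4.60 and 3.91 TPM.

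Of 20 genes of interferon induction and its receptors 14 were called lower and 2 higher (16 and 2 after scaling, median -0.36 and -0.57). Ifnb1, which encodes interferon beta, had 2.88, 6.92 and 7.75 TPM in the Dex plus LPS libraries, against 9.95, 8.11 and 8.48 TPM in the LPS libraries. Replicate 1 of Dex plus LPS lay under the other 2 replicates. The groups did not overlap, as in 67.2% of all tested genes, and the change was -0.61 ± 0.23, adjusted p = 0.0326. The call was lost without replicate 1 of Dex plus LPS (-0.24, adjusted p = 0.193), replicate 1 of LPS (-0.53, adjusted p = 0.102) or replicate 3 of LPS (-0.63, adjusted p = 0.0568). It was not called in the authors' deposited table (-0.83, adjusted p = 0.0537). The transcription factors Irf8 (-1.41 ± 0.062), Irf7 (-0.63 ± 0.092) and Irf1 (-0.57 ± 0.11) fell, and Irf3 (0.61 ± 0.073) and the interferon gamma receptor Ifngr1 (0.93 ± 0.085) rose. Of 19 STAT, JAK and SOCS genes 9 were called lower and 5 higher (12 and 1 after scaling, median -0.30 and -0.51). Both lists stand beside 15.2% lower and 44.8% higher over all tested genes (26.8% and 20.6% after scaling). The feedback inhibitors Cish (-1.90 ± 0.19) and Socs3 (-0.90 ± 0.13) fell, and the phosphatase Ptpn1 (0.93 ± 0.036) rose.

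The promoter letters were set beside these groups. A GAAANNGAA match was in 27 of 42 interferon-stimulated genes with a RefSeq promoter (64.3%), in 9.01% of 7362 tested genes with one, and in 9.76% of all 27025. It was in 18.2% of the 176 genes that fell by at least 2-fold and in 10.3% of the 136 that rose by at least 2-fold as deposited. GGNNTTTCC was in 11.4% of the 176 that fell, in 7.35% of the 136, and in 7.51% of tested and 6.62% of all genes. ACANNNTGT was in 8.82% of the 136 that rose, in 9.09% of the 176 that fell, in 4.63% of tested genes and in 7.9% of all genes, and in 14.3% of 28 glucocorticoid-induced genes. TGCNCNC was in 63.2% of the 136, 58.0% of the 176, 63.4% of tested and 53.6% of all genes. A gene with several starts counted once if any window matched, and enhancers were not searched.

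Most genes of antigen presentation were called lower, 9 of 11 of class II and costimulation and 13 of 19 of class I, beside 15.2% of all tested genes (26.8% after scaling). Cd74, the invariant chain of class II, had 38.6, 36.4 and 44.0 TPM in the Dex plus LPS libraries, against 173, 164 and 170.5 TPM in the LPS libraries (-2.07 ± 0.089, adjusted p = 4.01e-11). H2-Aa (-1.85 ± 0.090), H2-Eb1 (-1.58 ± 0.13) and H2-Ab1 (-0.85 ± 0.081), which encode class II chains, fell with it. The costimulatory ligand Cd86 fell to 5.65, 5.65 and 4.32 TPM, against 22.7, 27.7 and 23.1 TPM (-2.04 ± 0.11), and Cd40 fell less (-0.71 ± 0.10). Cd80, the relative of Cd86, rose to 20.1, 23.5 and 21.1 TPM, against 9.60, 9.97 and 8.98 TPM (1.10 ± 0.11), and the ligand Icosl rose by 1.23 ± 0.094. These were the 2 members of the list of 11 that were called higher, and the counts were the same after scaling (median -0.89 and -1.11). Of the class I genes 13 were called lower and 4 higher (15 and 3 after scaling, median -0.24 and -0.46), and none changed 2-fold. The class I regulator Nlrc5 (-0.84 ± 0.14) and the peptide transporter Tap1 (-0.58 ± 0.060) fell most, and H2-Q6 (0.51 ± 0.12) and H2-Q7 (0.46 ± 0.084) rose. These last are near-identical copies, between which reads may be split. H2-K1 had 1338, 1220.3 and 1244 TPM in the Dex plus LPS libraries, against 1231, 1301 and 1273 TPM in the LPS libraries and was called lower only after scaling (-0.22).

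Among genes of NF-kB and of Toll-like receptors 3 were called with a change of at least 2-fold as deposited, Tnip3, Cd180 and Tlr13. Tlr13, at 1.03, was close to that limit. Of 21 NF-kB subunits and inhibitors 8 were called higher and 3 lower, which scaling turned to 4 and 8 (median 0.07 and -0.15). The ubiquitin-binding inhibitor Tnip3 fell to 21.3, 17.9 and 23.5 TPM, against 92.3, 87.2 and 82.8 TPM (-2.02 ± 0.27). Nfkb1 (-0.42 ± 0.033) fell, Ikbkg (0.58 ± 0.082) and Chuk (0.48 ± 0.092), both of the IkB kinase complex, rose, and Nfkb2 was not called as deposited (0.02 ± 0.038) and was called lower after scaling (-0.19). Of 22 Toll-like receptors and adaptors 9 were called lower and 7 higher (11 and 4 after scaling, median 0.04 and -0.17). Both lists stand beside 15.2% lower and 44.8% higher over all tested genes (26.8% and 20.6% after scaling). Cd180, a Tlr4 homologue that restrains its signalling, fell to 65.4, 79.5 and 83.2 TPM, against 241, 263 and 213 TPM (-1.64 ± 0.11). The co-receptor Cd14 (0.64 ± 0.054) and Tlr13 (1.03 ± 0.058) rose, and the adaptor Myd88 had a change of 0.10 ± 0.047 and was not called.

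Inhibitors of MAPK signalling and of unstable mRNAs changed in both directions. Dusp1 rose, as given above, and Zfp36, which encodes the mRNA-destabilising protein tristetraprolin, fell to 69.5, 71.2 and 71.7 TPM, against 219.5, 178 and 207 TPM (-1.49 ± 0.071, adjusted p = 1.34e-10). Its relative Zfp36l1 rose at a low level (1.78 ± 0.295 against 0.380 ± 0.0814 TPM, 1.01 ± 0.17), as did Spred2 (0.84 ± 0.15) and Dusp2 (0.80 ± 0.10). Of 21 genes in that list 9 were called higher and 8 lower (6 and 9 after scaling, median 0.09 and -0.01). Among 13 immediate early factors Jun rose to 58.6, 55.6 and 56.1 TPM, against 12.9, 10.8 and 11.6 TPM (2.18 ± 0.068), and Atf3 fell to 77.4, 74.2 and 87.5 TPM, against 261, 266 and 255 TPM (-1.70 ± 0.046), with 4 called higher and 5 lower in all (4 and 8 after scaling, median -0.18 and -0.38). Of 13 clock genes 7 were called higher and 2 lower (3 and 2 after scaling, median 0.20 and 0.00 to 2 decimals), and Per1 stood far above the rest. This list and the others here stand beside 44.8% higher and 15.2% lower over all tested genes (20.6% and 26.8% after scaling). Of 8 Kruppel-like factors Klf9 and Klf4 (1.42 ± 0.093) rose and Klf6 (-0.73 ± 0.079) fell (2 higher and 2 lower after scaling, median 0.16 and -0.05, and 2 lower without replicate 3 of LPS). Of 14 macrophage lineage factors 4 were called in each direction (3 higher and 5 lower after scaling, median 0.11 and -0.10), with Cebpa (1.18 ± 0.11) up and Irf8 and Maf (-1.14 ± 0.12) down.

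The inducible enzymes Nos2 and Ptgs2 fell. Nos2, which makes nitric oxide, had 41.5, 35.9 and 35.3 TPM in the Dex plus LPS libraries, against 228, 226 and 223 TPM in the LPS libraries (-2.56 ± 0.077, adjusted p = 7.71e-13). Ass1, which resupplies its substrate arginine, fell by less (-1.03 ± 0.056). Acod1, which makes itaconate, had 3659, 3666 and 3656 TPM in the Dex plus LPS libraries, against 3867, 3701 and 3756 TPM in the LPS libraries (-0.04 ± 0.042) and was called lower only after scaling (-0.26). The NADPH oxidase subunit Ncf1 rose to 545, 555 and 539.8 TPM, against 237, 232 and 241 TPM (1.20 ± 0.044). Of 15 genes of nitric oxide, arginine, itaconate and NADPH oxidase 7 were called lower and 5 higher (9 and 3 after scaling, median -0.04 and -0.26). Ptgs2, the inducible prostaglandin synthase COX-2, had 255, 295 and 303 TPM in the Dex plus LPS libraries, against 1634, 1576 and 1591 TPM in the LPS libraries (-2.49 ± 0.13). The phospholipase Pla2g4a, which releases arachidonate, fell too (-1.37 ± 0.077), and the platelet-activating factor hydrolase Pla2g7 rose (0.99 ± 0.044). Of 13 prostaglandin and leukotriene genes 6 were called in each direction (4 higher and 7 lower after scaling, median -0.03 and -0.24). Both enzyme lists stand beside 44.8% higher and 15.2% lower over all tested genes (20.6% and 26.8% after scaling).

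Most genes of secreted proteases and matrix were called lower, 17 of 24, beside 15.2% of all tested genes (26.8% after scaling). The collagenase Mmp13 had 76.1, 68.1 and 67.4 TPM in the Dex plus LPS libraries, against 663, 574 and 608 TPM in the LPS libraries (-3.11 ± 0.066). The macrophage elastase Mmp12 fell to 657, 674 and 746 TPM, against 2462, 2472 and 2384 TPM (-1.82 ± 0.057). The inhibitors Timp1 (-2.57 ± 0.16) and Serpinb2 (-2.23 ± 0.080) and the urokinase Plau (-1.90 ± 0.090) fell with them. Of the 24 genes 6 were called higher (18 lower and 5 higher after scaling, median -0.64 and -0.86). Of 11 osteoclast differentiation genes 8 were called lower and 1 higher (10 and 1 after scaling, median -0.64 and -0.85), among them the fusion protein Dcstamp (-1.34 ± 0.14) and the protease Ctsk (-0.90 ± 0.059). The matrix gene Tnc, tenascin C, fell to 0.206, 0.187 and 0.161 TPM with Dex plus LPS, against 8.77, 8.90 and 8.70 TPM with LPS (-3.05 ± 0.052).

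Receptors of phagocytosis and lipid genes changed in both directions. Fcgr1, the high-affinity IgG receptor, fell to 20.8, 20.5 and 15.4 TPM, against 94.3, 95.1 and 89.4 TPM (-2.25 ± 0.12), and the beta-glucan receptor Clec7a fell by -2.12 ± 0.043. Of 21 Fc receptor, complement and phagocytosis genes 13 were called lower and 6 higher (14 and 3 after scaling, median -0.29 and -0.50). Of 22 efferocytosis and scavenger receptors 10 were called lower and 7 higher (12 and 4 after scaling, median -0.25 and -0.46), and 4 higher without replicate 3 of Dex plus LPS. The oxidised lipoprotein receptor Olr1 fell to 4.40, 3.87 and 3.61 TPM, against 32.2, 31.6 and 32.3 TPM (-2.74 ± 0.13), and Axl (-1.24 ± 0.080) and Msr1 (-1.06 ± 0.055) fell less. Mertk, a receptor for dying cells that glucocorticoids are known to raise, rose to 25.7, 24.1 and 23.2 TPM, against 16.9, 17.9 and 16.3 TPM (0.49 ± 0.067). Among 23 lipid handling genes Ch25h, which makes 25-hydroxycholesterol, fell to 0.672, 0.818 and 0.565 TPM, against 19.1, 19.9 and 22.7 TPM (-3.68 ± 0.12), and the endothelial lipase Lipg fell by -2.59 ± 0.082. The fatty acid-binding protein Fabp4 rose to 225, 225 and 240.4 TPM, against 82.9, 83.1 and 78.0 TPM (1.49 ± 0.052). That list had 8 called higher and 9 lower (5 and 11 after scaling, median -0.02 and -0.09). The phagocytosis, scavenger and lipid lists stand beside 44.8% higher and 15.2% lower over all tested genes (20.6% and 26.8% after scaling).

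The lowest change of all belonged to Tyrobp, the signalling adaptor DAP12, and its Dex plus LPS libraries differed widely. It had 0.0242, 0.0582 and 44.6 TPM in the Dex plus LPS libraries, against 114, 108 and 79.0 TPM in the LPS libraries, and vehicle cells had 292, 353 and 338 TPM. Replicate 3 of Dex plus LPS was far from the other two, and the change was -4.77 ± 1.13, adjusted p = 0.00203. It was -3.85 without replicate 1 of Dex plus LPS, -3.87 without replicate 2 and -6.59 without replicate 3. In the authors' deposited table it was -2.98 and not called (adjusted p = 0.152). The cause was not tested. Others among the 15 genes that fell most were Scimp (-3.14 ± 0.12), Ccnd2 (-2.92 ± 0.13) and Slamf9 (-2.64 ± 0.13).

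**Figure D3:**
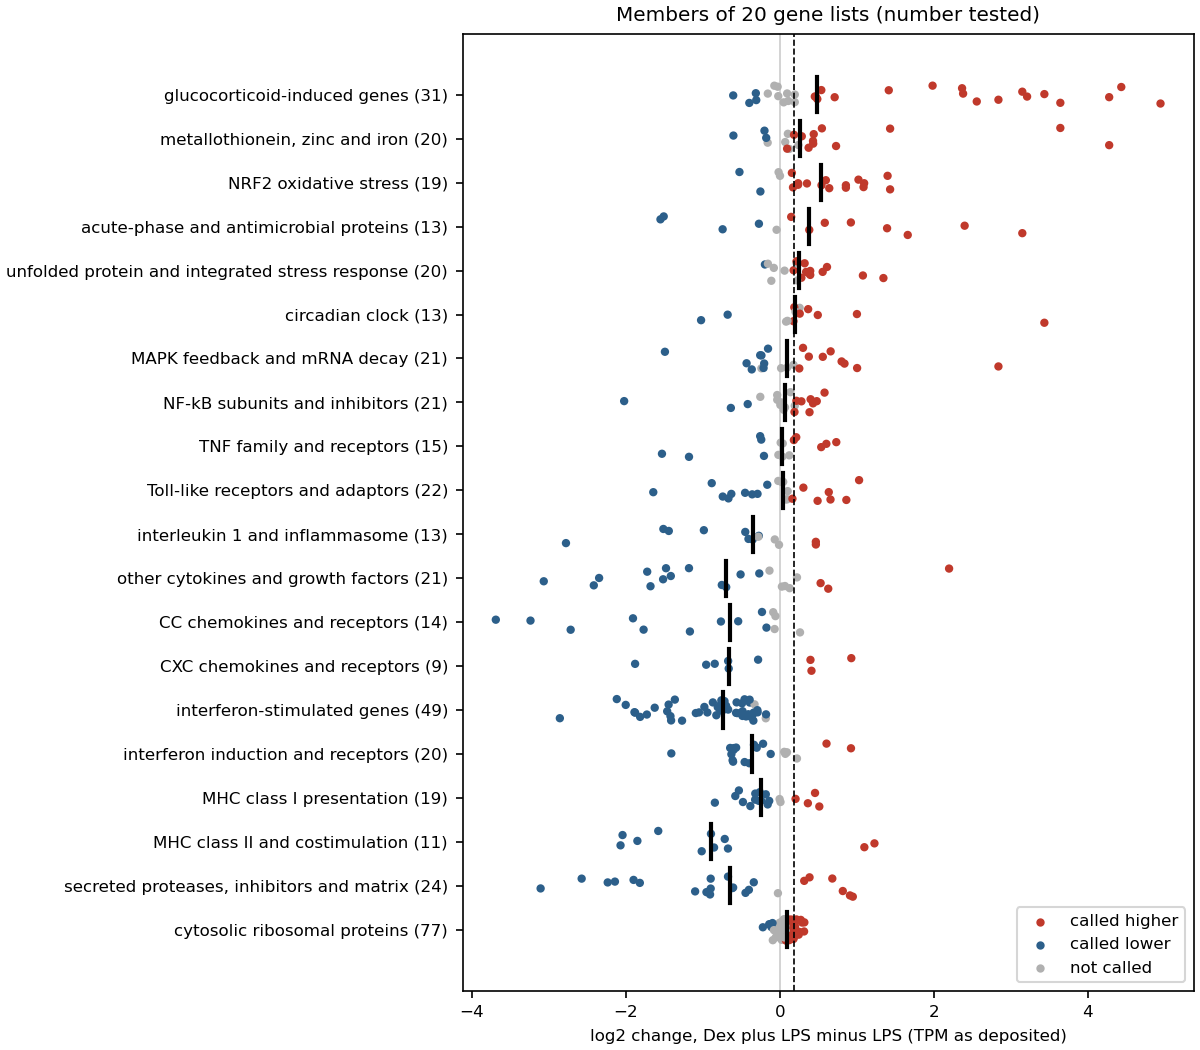
Log2 change of Dex plus LPS minus LPS for every tested member of 20 gene lists, as deposited. Each point is a gene, the black bar is the median of the list, and the dashed line is the median of all tested genes at 0.18; the 49 interferon-stimulated genes all lie at or under -0.18, and the glucocorticoid-induced genes reach 4.95.

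In 5 housekeeping lists, more members were called lower after scaling than as deposited. Scaling moved all changes by about -0.20, so this was not particular to these lists. Over all tested genes 44.8% were called higher and 15.2% lower as deposited, and 20.6% and 26.8% after scaling. Of 77 cytosolic ribosomal protein genes 42 were called higher and 4 lower as deposited, and 1 and 32 after scaling (median 0.10 and -0.12), and 2 lower without replicate 2 of Dex plus LPS or replicate 2 of LPS. Of 73 nuclear-encoded genes of oxidative phosphorylation 27 were called higher and 2 lower, and 1 and 27 after scaling (median 0.10 and -0.11). Without replicate 3 of Dex plus LPS 17 were called higher, without replicate 1 or 2 of Dex plus LPS 1 was called lower, and without replicate 3 of LPS 0 were. Of 13 mitochondrially encoded mRNAs 0 were called as deposited and 9 were called lower after scaling (median -0.11 and -0.33). By limma as deposited 1 of them had an unadjusted p under 0.05, and the authors' deposited table calls 10 lower. Without replicate 3 of LPS 1 was called lower. Of 26 lysosome genes 6 were called higher and 10 lower, and 1 and 18 after scaling (median -0.03 and -0.24). Of 18 sterol and fatty acid synthesis genes 2 were called higher and 1 lower (0 and 2 after scaling, median 0.04 and -0.16). These counts were 1 higher without replicate 3 of Dex plus LPS, replicate 2 of LPS or replicate 3 of LPS, 2 lower without replicate 3 of Dex plus LPS, and 0 lower without replicate 1 or 2 of Dex plus LPS or replicate 2 of LPS. None of these 5 lists had a member that changed 2-fold. Ribosomal, nuclear oxidative phosphorylation and sterol genes had more calls higher as deposited and more calls lower after scaling, as did all tested genes. Lysosome and mitochondrially encoded genes had a median under 0 in both settings. Of 21 glycolysis and hypoxia genes 8 were called higher and 6 lower (8 and 10 after scaling, median 0.08 and -0.14), with Pfkfb3 (0.93 ± 0.090) up and Hk3 (-1.03 ± 0.051) down. Of 30 DNA replication and mitosis genes 11 were called higher and 9 lower (7 and 10 after scaling, median 0.14 and 0.04), with Ccnd3 (1.02 ± 0.17) up and the cyclin Ccnd2 down.

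The most abundant mRNAs of the Dex plus LPS cells were Saa3, Fth1, Ccl3, Tmsb4x, Lyz2, Cxcl2, Ccl5 and Spp1. The ferritin Fth1 had 33988, 33455 and 33919 TPM in the Dex plus LPS libraries, against 31850.0, 32713 and 31909 TPM in the LPS libraries (0.07 ± 0.031) and was not called as deposited, and was called lower after scaling (-0.15). The thymosin Tmsb4x had 26851, 27016 and 25274 TPM, against 28529, 30621 and 29074 TPM (-0.16 ± 0.051). It was called lower, and not without replicate 3 of Dex plus LPS (adjusted p = 0.0718) or replicate 2 of LPS (adjusted p = 0.0699). The osteopontin gene Spp1 fell to 12992, 14852 and 15574 TPM, against 19411, 19630.0 and 18133 TPM (-0.40 ± 0.057). Lysozyme, Lyz2, was called higher as deposited (0.15 ± 0.034) and had -0.07 after scaling, where it was not called. The 10 most abundant genes took 22.4% to 22.5% of a Dex plus LPS library and 20.5% to 20.7% of an LPS library.

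Gene sets chosen in other cells of the series were read against the same change. RAW264.7 is a mouse macrophage line, its libraries share none with the marrow-derived cells, and its wild-type cells had LPS, or Dex alone, for 6 h. Of 480 tested genes that LPS raised at least 2-fold in RAW264.7, 277 (57.7%) were called lower with Dex in the marrow cells and 97 (20.2%) higher (341 and 60 after scaling), with a median of -0.29 (-0.50). The background is 15.2% lower and 44.8% higher (26.8% and 20.6% after scaling). Among the 97 the genes most raised by Dex were Mt2, Lcn2, Csf3, the AP-1 repressor Jdp2 (238 ± 11.7 against 52.5 ± 2.24 TPM, 2.16 ± 0.096), Ms4a6b (206 ± 12.4 against 50.5 ± 1.40 TPM, 2.00 ± 0.085), the secreted factor Metrnl (189 ± 14.9 against 47.6 ± 6.09 TPM, 1.97 ± 0.072), the kinase Fgr (26.7 ± 1.80 against 6.17 ± 0.344 TPM, 1.95 ± 0.12) and the syndecan Sdc4 (2532 ± 38.1 against 754 ± 63.4 TPM, 1.75 ± 0.068). Of 80 tested genes that Dex alone raised at least 2-fold in RAW264.7, 51 (63.8%) were called higher in the marrow cells and 13 lower (39 and 17 after scaling, median 0.42 and 0.25). Of 59 that Dex alone lowered, 33 (55.9%) were called lower and 8 higher (36 and 5 after scaling, median -0.42 and -0.62). Of 809 that LPS lowered, 344 (42.5%) were called higher and 116 (14.3%) lower, beside 44.8% and 15.2% of all tested genes (183 and 180 after scaling, median 0.19 and 0.04). At any fold the 2 Dex sets lay nearer the background. Of 1029 genes raised by Dex alone, 53.0% were called higher and 15.1% lower (30.4% and 29.1% after scaling, median 0.21 and 0.01). Of 1962 lowered by Dex alone, 42.4% were called higher and 20.8% lower (18.3% and 33.4% after scaling, median 0.14 and -0.05). The RAW264.7 table was normalized separately and gave the sets only.

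**Figure D4:**
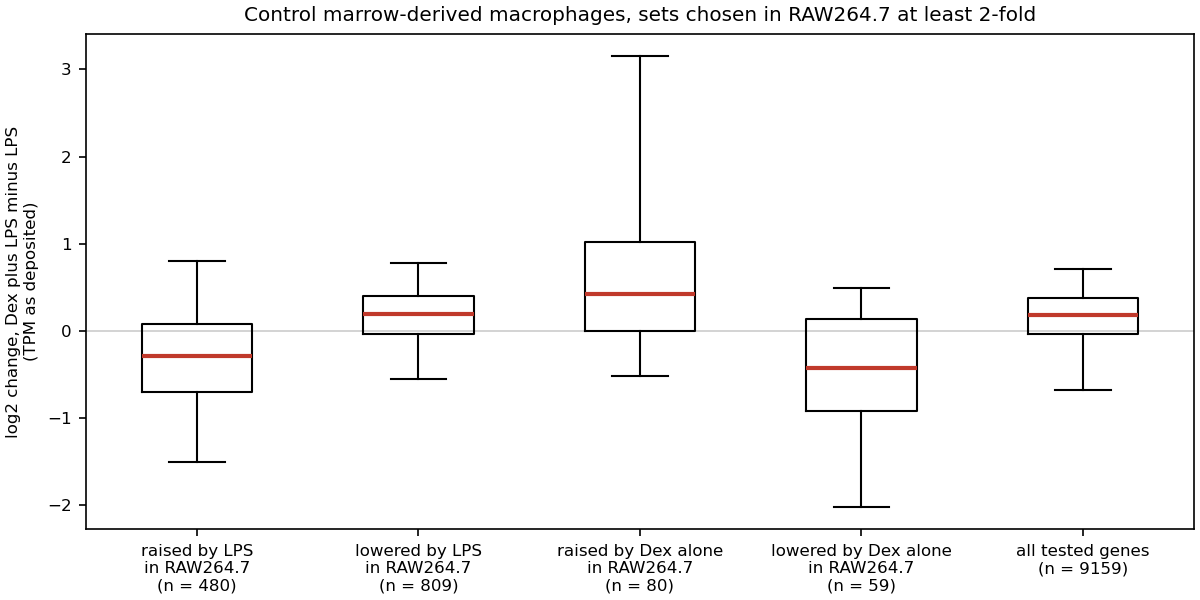
Distribution of the log2 change of Dex plus LPS minus LPS in control marrow macrophages for all 9159 tested genes and for 4 sets chosen in RAW264.7 libraries. Boxes span the quartiles with the median as a line, and whiskers reach the 5th and 95th percentiles; the genes raised by LPS have a median of -0.29 and those raised by Dex alone 0.42, beside 0.18 for all genes.

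The response was set beside that of marrow macrophages labelled Setd1bKO, given the same treatments, to see which changes differed. Setd1b itself was not lower in them. It had 4.47, 7.64 and 7.10 TPM with Dex plus LPS and 6.01, 6.89 and 9.63 TPM with LPS in the Setd1bKO-labelled libraries, against 4.49, 7.66 and 5.18 TPM and 5.46, 5.36 and 8.53 TPM in control libraries. A TPM of the whole gene does not show the loss of a part of it, so these values do not check the label. The Dex response of control cells was -0.14 ± 0.21 for Setd1b and 0.03 ± 0.19 for Setd1a, and neither was called.

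The difference of the responses, Setd1bKO minus control, was called for 569 of 9159 genes (6.21%), 246 positive and 323 negative. It uses the control libraries again, so it is no independent support for the control response. Ms4a4a had 22.7, 25.1 and 22.9 TPM with Dex plus LPS in Setd1bKO-labelled cells, against 10.7, 10.1 and 8.68 TPM with LPS. Its response was 1.19 there and 3.52 in control cells (difference -2.33 ± 0.16, adjusted p = 3.33e-07). Rhob, a small GTPase, had a response of 0.58 in Setd1bKO-labelled and 1.99 in control cells (difference -1.41 ± 0.065). The difference was also negative for Ifnb1 (-2.04 ± 0.32), Csf2 (-1.44 ± 0.17), Phlda1 (-1.29 ± 0.19) and the actin bundler Fscn1 (-1.21 ± 0.23). Ifnb1 and Csf2 were lower with Dex in control cells, so for them it means a larger fall in Setd1bKO-labelled cells. Fscn1 had a control response of 0.01 to 0.26 with 1 library left out. For Fscn1 the difference was not called with a pseudocount of 0.1 (adjusted p = 0.229). The difference was positive for Lipg (2.02 ± 0.12), Ch25h (1.95 ± 0.17), Ccl7 (1.71 ± 0.18), the matrix protein gene Tgfbi (1.67 ± 0.10) and Fcgr1 (1.63 ± 0.16), all of which fell with Dex in control cells. Ccl7 had 139, 139 and 142 TPM with Dex plus LPS in Setd1bKO-labelled cells, against 412, 429 and 376 TPM with LPS. The response of Dusp1 was 3.53 in Setd1bKO-labelled and 2.84 in control cells (difference 0.69 ± 0.078, adjusted p = 7.32e-05). For Tsc22d3 (-0.63 ± 0.22, adjusted p = 0.108) and Fkbp5 (-0.20 ± 0.12, adjusted p = 0.415) the difference did not pass the test. For Tsc22d3 it was called without replicate 3 of control LPS (-0.80, adjusted p = 0.0278).

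**Figure D5:**
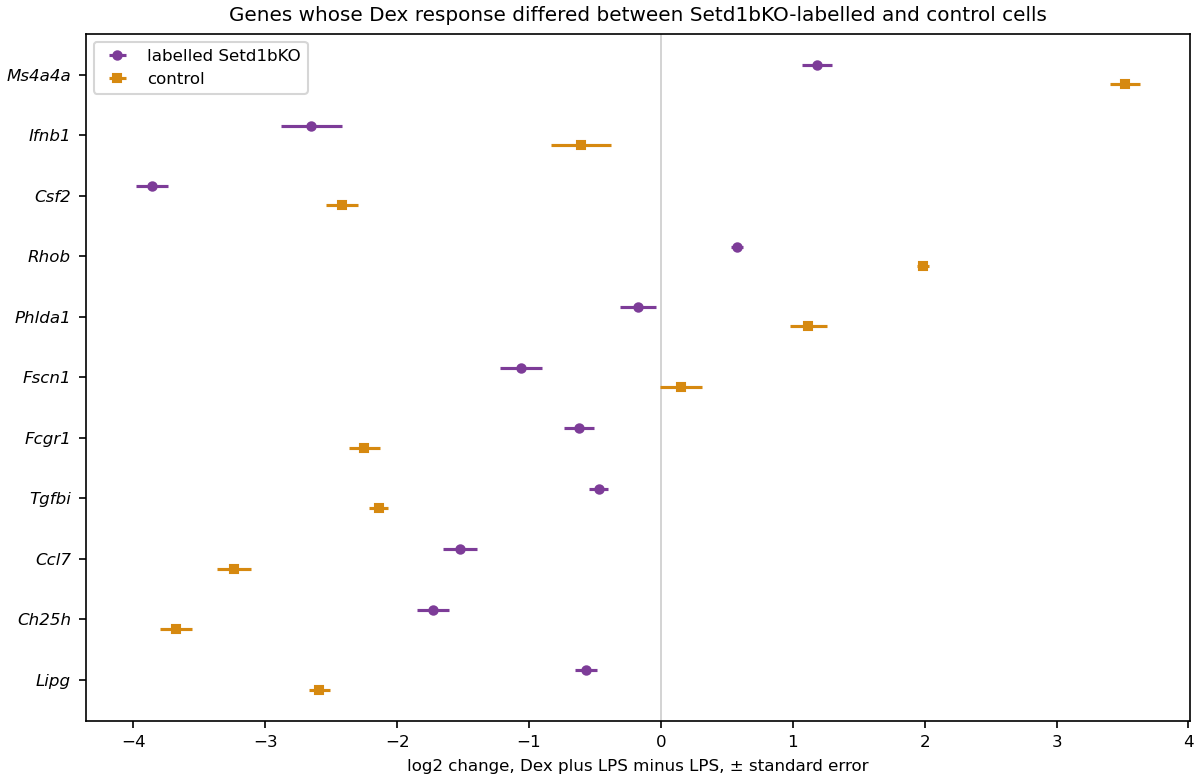
Log2 change of Dex plus LPS minus LPS with its standard error in Setd1bKO-labelled cells (upper point of each pair) and control cells (lower point) for the 6 most negative called differences and 5 of the 6 most positive. Ms4a4a shows 1.19 in Setd1bKO-labelled and 3.52 in control cells, and Lipg shows -0.57 and -2.59.

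The authors' deposited table gives its own fold changes for this comparison. It has 1696 genes higher and 2409 lower at an adjusted p under 0.05, beside 1883 and 2455 after scaling and 4100 and 1389 as deposited. In the authors' deposited table Tsc22d3 is at 5.30, Il1b at -1.73, Ccl22 at -4.04 and Tnf at -0.18 on the log2 scale. The values of the authors' deposited table lay a median of 0.21 under the changes of the deposited TPM and 0.00 from those after scaling.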

How the data were processed

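The authors' deposited table gives TPM for 18 marrow-derived libraries and, for 2 comparisons, a log2 fold change, a p-value and an adjusted p-value, with a baseMean signal column. Per the submitters' processing notes, Salmon 0.10.2, R 3.6.0, DESeq2 and GRCm38.p6/mm10 were used, and no annotation release is given there. All listed genes have a baseMean of at least 50.1, a filter of the authors. Read depth is unknown, since TPM keeps no depth.

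Groups came from the sample labels. The main fit was limma 3.58.1 in R 4.3.3 (eBayes with trend, two-sided) on log2(TPM + 1) over the 18 libraries, 1 mean per group, without a replicate term, on genes that reached 1 TPM in 3 or more libraries. Calls needed an adjusted p (Benjamini-Hochberg) under 0.05. Alternatives were a pseudocount of 0.1, no filter, a minimum of 5 TPM, median-of-ratios scaling, no trend, a replicate block, the 6 compared libraries alone, leaving out each library, and the authors' deposited comparison. The script was tested on simulated data. Sets from RAW264.7 came from a separate limma fit of the deposited TPM of 24 libraries. Coordinates are those of the GENCODE annotation on GRCm38 and promoters those of RefSeq on GRCm38.p6.

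The genes, lists and tests were chosen with earlier results of these data known. The text may name the 15 highest and 15 lowest changes among genes called in the same direction under both settings, where the higher mean reached 5 TPM and the libraries did not overlap. Of each list it may name the 6 largest called changes and the 3 most abundant members not called. A fixed list of known genes, the 6 most positive and 6 most negative differences, the 8 highest changes in the RAW264.7 set and the 8 most abundant genes may also be named. Some genes that these rules allow are not reported here.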

Additional observations from a re-analysis of the deposited data

Results flagged for a closer look

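The Dex responses below differed between Setd1bKO-labelled and control cells by limma's test of the difference itself, with Benjamini-Hochberg adjustment over all tested genes. Values are Setd1bKO minus control on the log2 scale. Negative differences were -2.33 for Ms4a4a, -2.04 for Ifnb1, -1.44 for Csf2, -1.41 for Rhob, -1.29 for Phlda1 and -1.21 for Fscn1. Positive differences were 2.02 for Lipg, 1.95 for Ch25h, 1.71 for Ccl7, 1.67 for Tgfbi, 1.63 for Fcgr1 and 0.69 for Dusp1. The cause was not tested.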

How the results depend on the processing

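Scaling set the direction of many small changes. Called higher and lower were 4100 and 1389 genes as deposited, 1883 and 2455 after median-of-ratios scaling and 1696 and 2409 in the authors' deposited table. At least 2-fold, the counts were 166 higher and 229 lower as deposited, 98 and 346 after scaling and 159 and 448 (607 in all) in the authors' deposited table, and a pseudocount of 0.1 gave 268 higher. After scaling Nfkbia (-0.17), Nfkb2 (-0.19), Fth1 (-0.15), Lyz2 (-0.069) and Ms4a7 (-0.22) turned negative, and in the authors' deposited table they were -0.17, -0.20, -0.15, -0.071 and -0.22. These were the 5 of 164 genes named with a value that had the opposite sign under an alternative and were called as deposited or under that alternative. With a pseudocount of 0.1 (adjusted p = 0.0581) and with the 6 compared libraries alone (adjusted p = 0.110) Ifnb1 was not called, and with those 6 alone Tnfaip3 (0.20, adjusted p = 0.0026) and Fth1 (0.07, adjusted p = 0.0483) were called higher. Without 1 library, 4938 to 5057 genes were called (3655 to 3772 higher, 1265 to 1299 lower), 391 to 413 of them at least 2-fold (161 to 175 higher, 226 to 238 lower), and 410 to 589 differences (177 to 309 positive, 228 to 354 negative). The sets chosen in RAW264.7 at any fold gave 35.7% called higher and 32.5% lower for those raised by LPS, 8.57% lower for those lowered by LPS, and 42.4% higher and 20.8% lower for those lowered by Dex alone. In the sets at least 2-fold, after scaling, 12.5% of the genes raised by LPS and 22.6% of those lowered by LPS were called higher. For those lowered by Dex alone this was 8.47%. Of those lowered by LPS 22.2% were called lower. The shares of all tested genes were 44.8% higher and 15.2% lower as deposited, and 20.6% and 26.8% after scaling. Same-numbered Dex plus LPS and LPS libraries had correlations of their deviations of -0.0284, -0.0282 and 0.0154. Differently numbered ones had -0.029 to 0.0542, so no replicate effect shared by number was seen. These values cannot show whether same-numbered libraries came from the same animal or culture. A replicate block gave 4100 higher and 1377 lower calls and 534 differences. Beyond the scaling and the choice of sets, the causes of these shifts were not tested. Genes under the authors' minimum level were not analysed here, and with TPM alone the precision at low levels is unknown.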

Other observations

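The Ms4a genes, a family of 4-pass membrane proteins, were looked at after their values were seen, because Ms4a4a and Ms4a6b stood among the genes that rose. Of 7 tested members, 4 were called higher under both settings, Ms4a4a (3.52 ± 0.11), Ms4a6b (2.00 ± 0.085), Ms4a6c (1.09 ± 0.076) and Ms4a6d (0.62 ± 0.041). Over all tested genes, 44.8% were called higher as deposited and 20.6% after scaling. Ms4a4a and Ms4a6b led to the choice of the family and are in the count, so it cannot be weighed against these shares. Ms4a6c had 1080.1, 1089 and 1009.7 TPM in the Dex plus LPS libraries, against 467, 532 and 489 TPM in the LPS libraries. Ms4a6d had 1251, 1228 and 1184 TPM in the Dex plus LPS libraries, against 780.1, 828 and 782 TPM in the LPS libraries. Ms4a14 (-0.74 ± 0.11) and Ms4a4c (-0.63 ± 0.21) were called lower under both. The call of Ms4a4c was lost without replicate 3 of Dex plus LPS (adjusted p = 0.0862), without replicate 2 of LPS (adjusted p = 0.0554) and with a pseudocount of 0.1 (adjusted p = 0.201). Ms4a7 had a change of 0.00 ± 0.040, and was called lower after scaling (-0.22). The 2 groups of libraries did not overlap for Ms4a6c and Ms4a6d, as for 67.2% of all tested genes. Members of this family are close relatives, between which reads may be split.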
